A study of Arabidopsis thaliana with 6 samples.

Results

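A set of 52 probe sets, 0.229% of the 22746 on the array that were not control probe sets, read higher on a single array of an Arabidopsis seedling series than on each of the other 5. They were chosen by their values. On the array coded A3-1 in its title each had at least 50 intensity units and at least 2.5 times the highest of the other 5 arrays, with all values below 10 raised to 10. The array coded A3-2 had to stay below 1.5 times the higher control array. The probe sets of IAA29, GH3.3, WES1, EXPA4, EXPA8 and EXPA15 were left out by name. Since 1 array decides membership, the height of the members on A3-1 is a description without a replicate and without a test.

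The series measured transcripts of whole Col-0 seedlings on Affymetrix ATH1 arrays, 1 for each of 6 pools of about 40 plants kept at 22 °C under 16 h of daily light. The control, with 2 arrays (A1-1 and A1-2), was a line called aeq+ that carries an aequorin transgene, which encodes a calcium-reporting protein. Both other lines carried a cdpk6-yfp transgene, and the labels give 2 arrays (A2-1 and A2-2) for line 4 and 1 array (A3-2) for line 1. The labels of A3-1 conflict: its title ends in Kan-3, after the Kan-1 and Kan-2 of the controls, and its source name is that of the aequorin line, whereas its strain and modification labels are those of line 1. It was placed in no group. The promoter of the cdpk6-yfp transgene, the age of the seedlings and whether the cdpk6-yfp lines also carry aequorin are not given in the sources used here, and the transgene's own transcript was not analysed here.

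Calcium-dependent protein kinases bind calcium directly and pass calcium signals on by phosphorylating other proteins, and plants use them in responses to stress, hormones and growth cues. The members are not a pathway but a group defined by 1 array. Those with a gene name here encode proteins of pectin modification, amino acid breakdown, redox chemistry, membranes, metal binding and ubiquitin transfer, beside several of unknown function.

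A3-1 stood apart over many probe sets. Among 13647 probe sets above a filter on dim signals, 1029 to 1295 differed over 2-fold between A3-1 and each control or line 4 array. Between A3-1 and the line 1 array 749 did, against 73 between the control arrays and 12 between the line 4 arrays. Across labelled lines the count was 362 to 391 for control and line 4 and 573 and 644 for control and line 1. For line 4 and line 1 it was 782 and 778, above the 749 of A3-1 and line 1. By the same numbers of level and fold, without the limit on A3-2 and without exclusions by name, 68 probe sets were high only on A3-1, or 0.299% of all. The same count was 9 for the line 1 array, 1 for control replicate 2 and 0 for each of the other 3 arrays. A control or line 4 array also had to exceed its own replicate, whereas A3-1 and the line 1 array have no labelled replicate, so these counts can be compared only between A3-1 and line 1. The mirror count, of probe sets low on 1 array only, was 117 for A3-1, 8 for line 1 and at most 1 on each other array, under the same limit. Median intensity was 45.45 on A3-1 and 44.2 to 46.4 on the others, and scanner background 95.64 against 89.78 to 142.62. The 25S ribosomal RNA probe set read 2189.3 on A3-1, 1073.1 on the line 1 array, 275.4 and 915.9 in line 4 and 282.1 and 277.2 in the control. The ratio of 3′ to 5′ actin signal was 4.67 on A3-1 and 3.19 to 4.30 elsewhere. That of GAPDH was 1.67 on A3-1, within the 1.43 to 1.79 of the other arrays. The part of these array differences in the members' values was not tested.

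**Figure D1:**
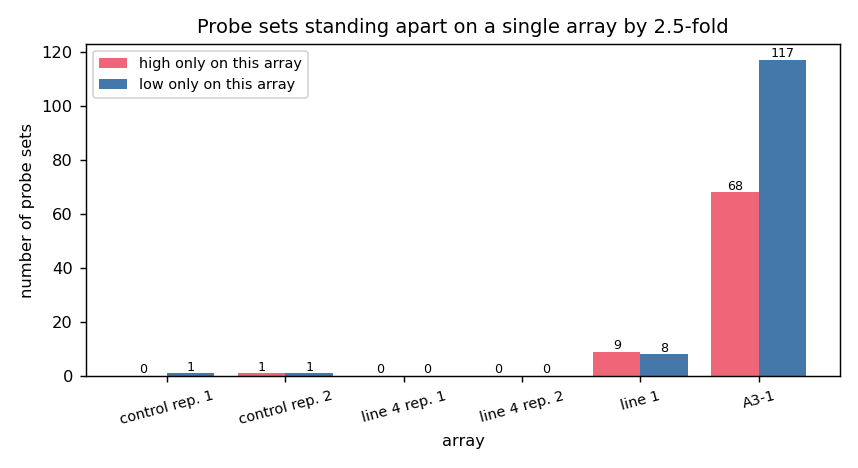
Number of probe sets (vertical axis) that stood at least 2.5-fold above all other arrays (red) or at least 2.5-fold below them (blue) on each of the 6 arrays. A3-1 has 68 and 117, the line 1 array 9 and 8, and each other array, which has a labelled replicate to differ from, at most 1.

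Of the 52 members, 13 matched 1 gene, 1 matched several genes and 38 had no gene name in the annotation used. That is 25% named as 1 gene, whereas 59.4% of all 22746 probe sets were. No member gene was measured by another named probe set. The ratio of A3-1 to the highest other array reached 9.98, with a median of 3.29, and 14 members reached 4 or more. Intensities on A3-1 ran from 50.5 to 1032.1 with a median of 177.8. On the other arrays the members' median lay between 37.15 and 43.6. On those 5 arrays 20 members lay below the array's median throughout and 13 above it throughout. With values below 10 raised to 10, the control replicates differed by a median of 1.13-fold at the members and by at most 2.7-fold, and the numerator of every ratio is a single pool of plants.

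**Figure D2:**
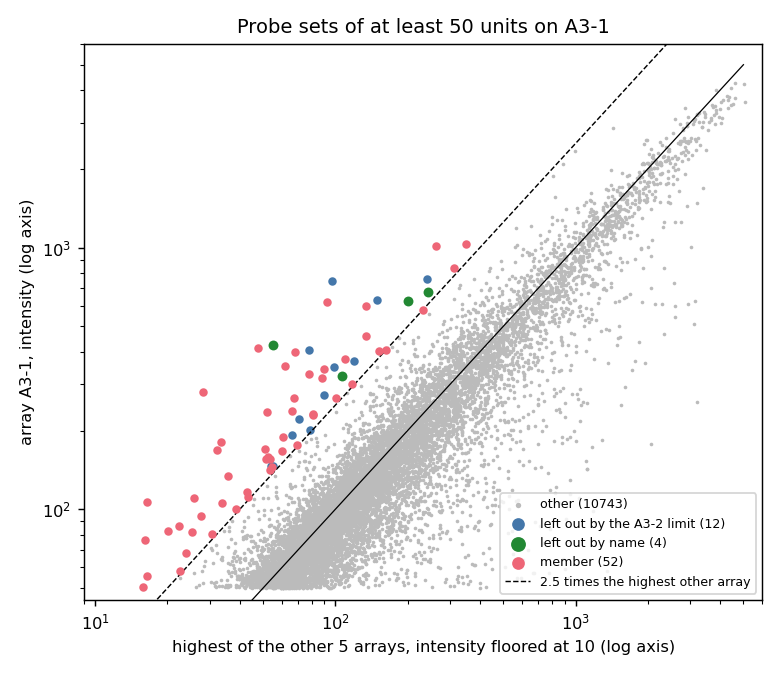
Intensity on A3-1 against the highest intensity on the other 5 arrays, both on log axes, for every probe set of at least 50 units on A3-1. The 52 members (red) lie above the dashed line of 2.5-fold, as do the 4 probe sets left out by name (green) and the 12 left out by the limit on A3-2 (blue).

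A gene of the cell wall had one of the larger named differences. AT4G25260 encodes a protein of the plant invertase and pectin methylesterase inhibitor family, whose members restrain enzymes that cleave sucrose or remove methyl groups from pectin. Its intensity was 374.3 on A3-1, 79.5 and 81.7 in the control, 61.9 and 66.3 in line 4 and 109.4 in line 1. The line 4 arrays lay below both controls and the line 1 array above them, and A3-1 was 3.42 times the line 1 value. In line 4 against the control the log2 difference was -0.33 ± 0.12 (SE, n = 2 against 2), which did not pass (limma adjusted p = 0.102).

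Among genes of metabolism and redox chemistry, MGL encodes methionine gamma-lyase, which breaks methionine down to methanethiol, ammonia and an oxo acid. MGL read 134.6 on A3-1, 27.1 and 25.3 in the control, 35.8 and 28.6 in line 4 and 23.2 in line 1. All 5 other arrays thus lay in the lower part of the intensity range, and A3-1 was 3.76 times the highest of them. AT5G02540, of the family of proteins with an NAD(P)-binding Rossmann fold, read 231.7 on A3-1, 50.8 and 55.2 in the control, 45.4 and 47.0 in line 4 and 80.8 in line 1. Its line 4 difference of -0.20 ± 0.15 did not pass (limma adjusted p = 0.408). AT1G64500, a glutaredoxin family gene whose kind of protein reduces disulfides with glutathione, read 68.0 on A3-1, 12.9 and 7.6 in the control, 23.9 and 19.1 in line 4 and 5.2 in line 1. Line 1 was lowest, the control arrays next and both line 4 arrays above them, without overlap, all at the dim end of the range. The probe set shared by AT2G18150 and AT2G18140, both of the class of secretory peroxidases, read 106.2 on A3-1, 29.9 and 33.8 in the control, 21.8 and 26.2 in line 4 and 16.9 in line 1, and it cannot tell those genes apart.

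Genes of membranes, metal binding and protein turnover formed a second small group. AT5G23750 encodes a remorin, a plant protein of plasma membrane microdomains. It read 111.0 on A3-1, 43.3 and 38.2 in the control, 42.6 and 38.8 in line 4 and 33.1 in line 1, so that control and line 4 overlapped (difference -0.0005 ± 0.19, limma adjusted p = 0.999). AT5G24580, of the heavy-metal-associated domain family, was the dimmest named member on A3-1, at 57.9. Its other values were 21.3 and 22.2 in the control, 14.9 and 18.4 in line 4 and 22.6 in line 1. AT5G47610 encodes a RING-type protein, a family that includes ubiquitin ligases. It read 157.9 on A3-1, 47.0 and 52.3 in the control, 52.1 on both line 4 arrays and 44.0 in line 1. The 5 other arrays of AT5G47610 lay within 1.19-fold of each other, the closest of all 52 members, and line 4 differed from the control by 0.07 ± 0.16 (limma adjusted p = 0.796).

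AT4G27450 and AT4G10270 belong to families named for induction by stress. AT4G27450, of the aluminium-induced protein family with YGL and LRDR motifs, was the brightest member, at 1032.1 on A3-1, 348.8 and 335.2 in the control, 285.2 and 251.9 in line 4 and 293.5 in line 1. Both cdpk6-yfp lines lay below both controls, and line 4 fell by 0.35 ± 0.09 on the log2 scale (n = 2 against 2, limma adjusted p = 0.0249). That call was lost without control replicate 1 (log2 difference -0.32) and without line 4 replicate 2 (-0.26), each leaving 1 array in that group. It was also lost when dim probe sets were kept (limma adjusted p = 0.0732) and when the variance had no trend (0.112). AT4G10270, of the wound-responsive family, read 82.0 on A3-1, 14.6 and 12.9 in the control, 25.3 and 24.2 in line 4 and 18.0 in line 1. The groups did not overlap at AT4G10270, with the line 1 value between control and line 4, and its probe set was below the filter on dim signals and did not enter the test.

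The remaining named members have no established function that can be stated here. AT5G50335 had the largest named ratio, 6.47, with 106.8 on A3-1, 11.7 and 1.5 in the control, 1.4 and 11.0 in line 4 and 16.5 in line 1. Replicates of AT5G50335 differed about as much as the groups did, with all 5 values near the floor. AT5G60840 read 166.4 on A3-1, 45 and 33.9 in the control, 46.6 and 60.0 in line 4 and 54.1 in line 1, with a line 4 difference of 0.44 ± 0.20 that did not pass (limma adjusted p = 0.184). AT1G21050, which encodes a protein of a plant family with a domain of unknown function, sat at the threshold of the rule, with 407.8 on A3-1, 96.9 and 88.7 in the control, 163.0 and 139.6 in line 4 and 144.2 in line 1. All 3 cdpk6-yfp arrays of AT1G21050 lay above both controls, and line 4 rose by 0.70 ± 0.11 (limma adjusted p = 0.00346). With values below 10 raised to 10, AT4G39675 varied most on the other arrays, over an 8.28-fold range. It read 404.5 on A3-1 and 151.6 in line 1, 109.3 and 96.2 in the control and 26.2 and 18.3 in line 4, where it fell by 2.23 ± 0.19 (limma adjusted p = 9.0e-05).

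**Figure D3:**
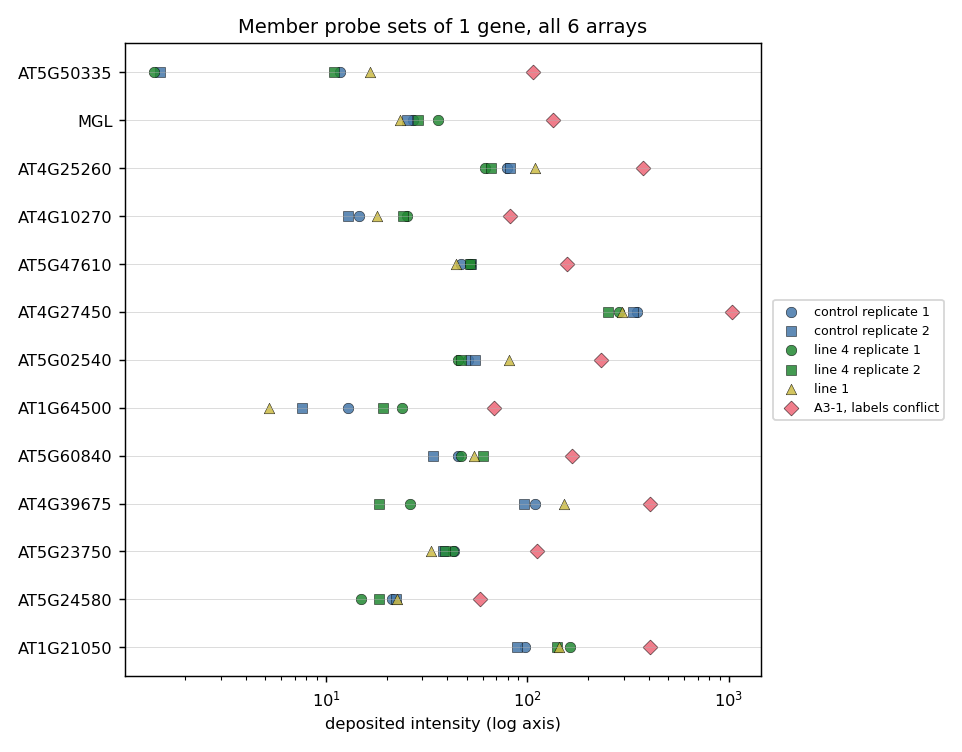
Deposited intensity (log axis) of the 13 members that match 1 gene on each of the 6 arrays, ordered by the ratio of A3-1 to the highest other array. A3-1 (diamonds) lies to the right in every row because the rule requires it, while the order of the control, line 4 and line 1 symbols differs from gene to gene.

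Of the 10 largest ratios, all but that of AT5G50335 belonged to probe sets with no gene name here, which are given by their probe set identifiers. Probe set 258497_at read 280.5 on A3-1 and between 15.4 and 28.1 on the other arrays, the largest ratio of all at 9.98. Probe set 256266_at read 414.4 on A3-1, 21.6 and 18.6 in the control, 47.8 and 29.1 in line 4 and 20.4 in line 1. For 258399_at the values were 617.9 on A3-1, 76.6 and 92.7 in the control, 62.5 and 68.4 in line 4 and 41.0 in line 1. These members differed in how the remaining arrays were ordered: line 4 lay above both controls at 256266_at and below both at 258399_at. Probe set 245325_at read 400.2 on A3-1 and 44.5 to 67.8 elsewhere, and 248311_at read 352.2 and 39.3 to 62.0. Probe set 256299_at, the second brightest member, read 1016.0 on A3-1, 177.2 and 178.5 in the control, 260.6 and 261.5 in line 4 and 165.9 in line 1. Its replicates were nearly equal within each group, and line 4 rose by 0.55 ± 0.08 (limma adjusted p = 0.00205). The least variable unnamed member was 265768_at, at 460.8 on A3-1 and 112.9 to 134.3 on the other 5. Across all 52 members, with values below 10 raised to 10, the other 5 arrays lay within 1.5-fold of each other at 7 and within 2-fold at 35.

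**Figure D4:**
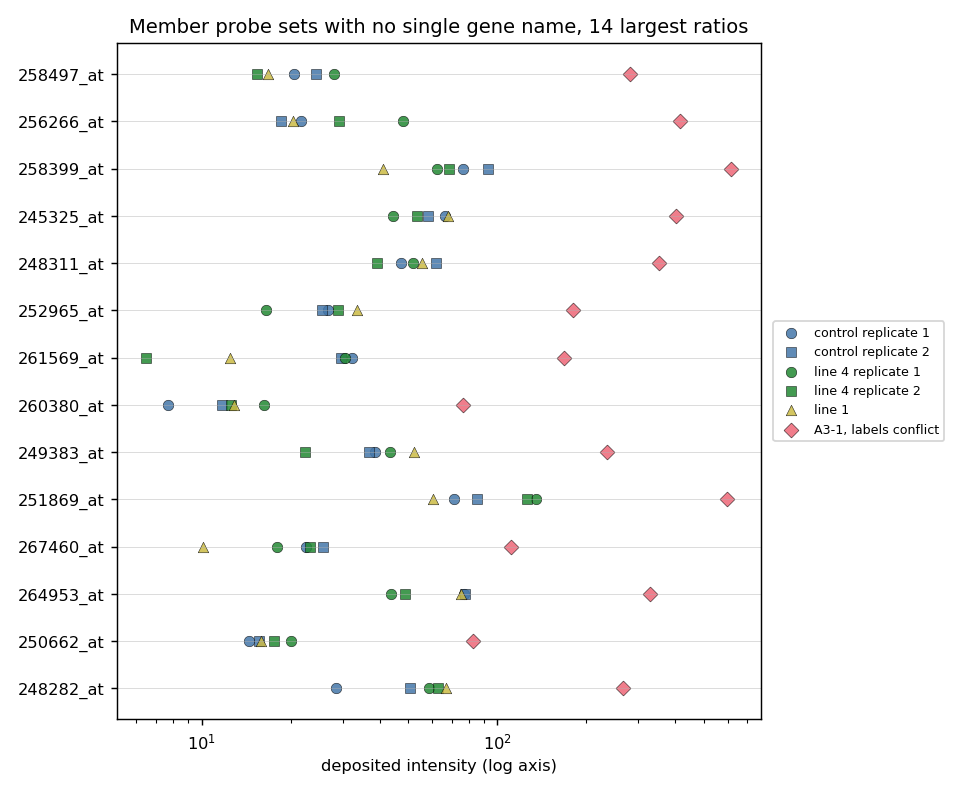
Deposited intensity (log axis) on each of the 6 arrays for the 14 largest ratios among members without a single gene name, ordered by ratio. On A3-1 (diamonds) they span 76.7 to 617.9 units, with the other arrays to the left in every row, as the rule requires.

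The comparison of line 4 with the control does not involve A3-1, so it could be tested at the members, although the rule caps the line 4 values from above. It was fitted across all 13647 probe sets above the filter, of which 15.5% passed a limma adjusted p of 0.05, 8.1% higher and 7.37% lower in line 4. Of the 52 members, 31 were bright enough to be tested, and the filter did not use A3-1. Of these, 11 passed, 6 higher and 5 lower, and 20 did not pass. Leaving out either line 4 replicate left 1 array in that group, and fewer probe sets then passed, both among the members and over all tested. The median log2 difference was -0.007 over the 31 members and -0.03 over all probe sets tested, so the members had no common direction in line 4. The median size of the difference, ignoring its sign, was 0.37 at the members and 0.19 over all tested. These counts describe probe sets chosen by another contrast and carry no test as a group.

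Besides AT1G21050 and 256299_at, the rises in line 4 were at unnamed probe sets. At 246523_at the line 4 arrays read 64.8 and 65.9 and the controls 34.2 and 28.3, a rise of 1.07 ± 0.19 (limma adjusted p = 0.00500), with 25.8 in line 1 and 238.6 on A3-1. At 261191_at the control read 49.9 and 55.6 and line 4 97.4 and 100.3, a rise of 0.91 ± 0.14 (limma adjusted p = 0.00239). At 251869_at the control read 71.3 and 85.2 and line 4 134.7 and 125.7, a rise of 0.74 ± 0.13 (limma adjusted p = 0.00500). At 263252_at the control read 44.4 and 40.0 and line 4 69.1 and 67.3, a rise of 0.69 ± 0.16 (limma adjusted p = 0.0179). In each of these 4 the line 1 array did not exceed both controls, and A3-1 was the highest array, at 266.7, 596.1 and 175.4 for the last 3. The calls at 246523_at and 263252_at were lost without either line 4 replicate, when line 4 had 1 array. Without line 4 replicate 1 the log2 differences there were 1.08 and 0.68, and without line 4 replicate 2 they were 1.06 and 0.71. With no filter the call at 263252_at was also lost (limma adjusted p = 0.0526).

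The unnamed falls were smaller than that of AT4G39675. Probe set 264953_at read 77.1 and 77.6 on the control arrays and 43.8 and 48.6 on those of line 4. It fell by 0.75 ± 0.14 (limma adjusted p = 0.00748). That call was lost without line 4 replicate 1, where the difference was -0.67 with 1 line 4 array. Probe set 263320_at fell by 0.63 ± 0.18 (limma adjusted p = 0.0433) and 255788_at by 0.42 ± 0.11 (0.0361). Both of the last 2 calls were lost when any 1 of the 4 control and line 4 arrays was left out, leaving 1 array in its group. The differences were then -0.71 to -0.54 and -0.51 to -0.33. Both calls were also lost with no filter (limma adjusted p = 0.0985 and 0.0752), and that at 255788_at with no variance trend (0.0778). Among the 21 members too dim to be tested, 253502_at read 44.3 and 54.5 in line 4, 12.6 and 9.4 in the control, 16.8 in line 1 and 145.5 on A3-1, which puts line 4 apart from the control there as well.

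**Figure D5:**
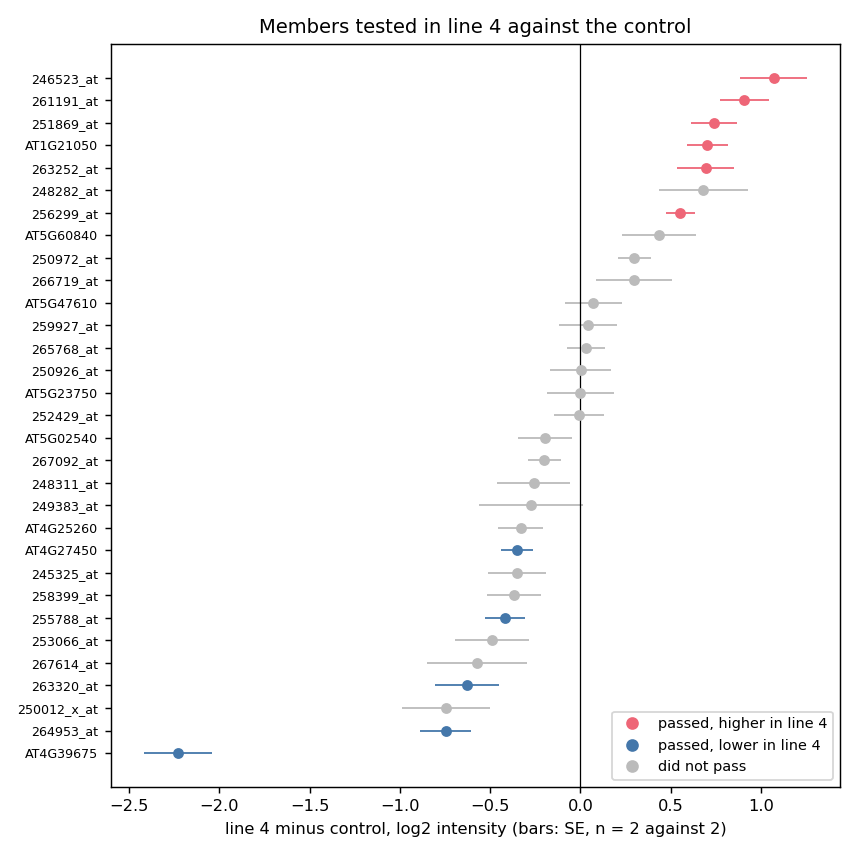
Log2 difference between line 4 and the control (horizontal axis, bars SE, n = 2 arrays against 2) for the 31 members bright enough to be tested. Red points passed as higher (6), blue as lower (5) and grey did not pass (20). The differences run from -2.23 to 1.07.

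Counted by position alone over all 52 members, both line 4 arrays lay above both controls at 17, or 32.7%, where 21.9% of all 22746 probe sets did. Both lay below at 18, or 34.6%, against 30.7% of all probe sets, and the groups overlapped at 17. The line 1 array lay above both controls at 22 members (42.3%, against 38.1% of all) and below both at 22 (42.3%, against 35.4%). The rule bounds line 1 from above by the controls, so its upper side is in part fixed. The highest array after A3-1 was the line 1 array at 16 members, line 4 replicates 1 and 2 at 14 and 5, and control replicates 1 and 2 at 6 and 11. By array, line 1 was thus the most frequent runner-up, although the rule bounds it. By group, line 4 held that place at 19 members and the control at 17, with 2 arrays each. How often each array is the highest of the 5 over all probe sets was not counted, so the 16 are not known to be unusual. The line 4 and line 1 positions share the same control arrays.

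The edges of the rule cut through a continuous range. The 4 members just inside had ratios of 2.502 for AT1G21050, 2.503 for 250972_at, 2.538 for 263252_at and 2.562 for AT5G24580. Just outside were 256894_at at 2.49, HAT2 at 2.44, AT4G22190 at 2.419 and 257481_at at 2.416. HAT2, a homeobox gene that responds to auxin and shade, read 451.9 on A3-1, 169.1 and 144.4 in the control, 85.1 and 84.9 in line 4 and 185.0 in line 1. Line 4 fell there by 0.88 ± 0.11 (limma adjusted p = 0.000860). The limit on A3-2 left out 12 further probe sets, among them AT5G62280 with 405.2 on A3-1, 78.0 on the line 1 array and 29.2 and 15.5 on the controls, and AT5G12050 with 758.9, 239.7, and 64.1 and 70.1 on the same arrays.

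Of the 6 genes left out by name, 4 met the numbers of the rule. IAA29, an auxin-induced repressor of auxin signalling, read 425.2 on A3-1 and 20.3 to 55.1 elsewhere. GH3.3 and WES1, both for enzymes that conjugate auxin to amino acids, read 322.4 and 626.0 on A3-1 and at most 106.8 and 201.2 elsewhere. EXPA8, for an expansin that loosens cell walls, read 678.7 and at most 244.3, while EXPA4 (248.7 against 139.0) and EXPA15 (140.5 against 126.8) did not reach 2.5-fold. In the whole auxin response list, 7 of 25 genes were named on the array, and their median ratio of A3-1 to the highest other array was 2.44. Among those of the list not yet given, LBD16 read 51.7 on A3-1 and 25.5 to 57.5 elsewhere, and LBD29 and GH3.1 stayed dim, at 19.3 and 13.7 on A3-1. In line 4 against the control, 1 of the 5 auxin response genes tested rose and 3 fell, where 8.1% and 7.37% of all probe sets tested did, with a median of -0.61 beside -0.03 over all probe sets tested.

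None of the gene lists held a member, but the lists took only probe sets of 1 gene. The 39 unnamed or shared members could therefore be in none of them. Families were matched by words in synonyms only. In the auxin response, shade and expansin lists the only genes at 2.5-fold were IAA29, GH3.3, WES1 and EXPA8. Those were left out of the members by name, so these lists could hold none of them. The absence therefore says little about the members. Of the 19 expansin genes named on the array EXPA8 alone reached 2.5-fold, with a median ratio of 1.0 over the 19. That median comes from the floor, as EXPA21, EXPA24 and AT4G30380 were below 10 on every array. The ratios ran from 0.277 for EXLA1 to 2.778 for EXPA8. In line 4 none of the 12 expansin genes tested rose and 3 fell (median -0.23). None of the 4 pectin enzyme, 11 xyloglucan enzyme, 9 peroxidase or 2 glutaredoxin genes named on the array reached 2.5-fold on A3-1. Their median ratios were 0.63, 0.89, 0.67 and 0.82. This ratio divides by the highest other array, so it can fall below 1 where A3-1 lies within the others. Its median over all probe sets is not given, so these values are not known to be low. Summed on A3-1, the lists in that order read 266.3, 1476.4, 2610.5 and 753.6. Elsewhere they read 204.4 to 493.5, 1379.7 to 1684.7, 3011.2 to 3463.7 and 808.4 to 1131.2. In line 4 those lists gave 2 rises and 0 falls of 3 tested (median 0.41), 2 and 1 of 7 (-0.04), 2 and 1 of 7 (-0.08) and 2 and 0 of 2 (0.40), beside 8.1% rises and 7.37% falls over all probe sets tested. Of the 4 genes of shade and PIF targets named on the array, IAA29 alone reached 2.5-fold. BIM1 and FHL, which act in brassinosteroid and phytochrome A signalling, read 135.8 and 82.1 on A3-1 against at most 78.8 and 50.1. A further 14 lists had median ratios, read with the same limit, from 0.056 for cold response to 0.985 for transcription factors. AT1G64500 and AT4G25260 carry no family word in the gene table and so are in none of these lists. The lists took probe sets of 1 gene, so the member shared by the peroxidase genes AT2G18150 and AT2G18140, with a ratio of 3.14, is in none of them either.

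The labelled whole seedlings were checked through markers named on the array. PYK10, a root and hypocotyl beta-glucosidase, was bright on all arrays (2178.5 on A3-1, 2237.7 to 2929.8 elsewhere), and 13 photosynthesis genes summed to 18923.5 on A3-1 and between 17232.8 and 21633.7 elsewhere. No epidermis, flower, seed or xylem marker was named on the array. Guard cell genes were dim, and the summed level of the 3 of 4 markers measured was 84.0 on A3-1 and 32.8 to 47.8 elsewhere, with FMA at 66.5 against 26.5 to 39.1, SPCH at 14.9 against 3.0 to 6.4 and MUTE at most 2.7 on any array. Of 5 root hair markers, EXPA7 and EXPA18 were measured and summed to 76.2 on A3-1 and 60.5 to 77.4 elsewhere. EXPA18 was highest on A3-1 (50.5 against 32.0 to 39.6), whereas EXPA7 lay within the other arrays (25.7 against 23.7 to 37.8). TUA1 of pollen read 101.1 against 72.5 to 118.1, and CLV3 of the shoot meristem was at most 4.5 on any array. In a whole seedling, more cells of a type and more RNA per cell cannot be told apart, and the part of the guard cell genes in the members' values was not tested.

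The 13 named members lie on 3 chromosomes by their locus numbers, 6 on chromosome 5, 4 on chromosome 4 and 3 on chromosome 1. The closest pair in gene order, MGL and AT1G64500, has 31 annotated genes between them, so none of the named members adjoins another.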

How the data were processed

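Biotin-labelled RNA was hybridised to 1 ATH1 array per sample, per the labels. The authors deposited linear intensity values, 1 for each probe set and array. How the probes were summarised is not stated in the labels, and by the values each array has a trimmed mean near 100.01. The file holds 22810 probe sets, of which 64 control probe sets were left out. For the test, values of 0 were raised to 0.1, the lowest positive value, and taken to log2. The 40% of probe sets with the lowest mean over the 5 grouped arrays were dropped, which kept 13647. Line 4 was compared with the control by lmFit and eBayes of limma 3.58.1 (R 4.3.3), with a trended variance prior, 5 arrays and 3 groups, and p-values were adjusted by Benjamini-Hochberg over those 13647. The lone line 1 array has no spread of its own and was compared by position only. Nothing says that the pools of a group came from separate growths, so a p-value here reflects only how these pools spread, and the number of arrays limits the precision.

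The fit was tested on simulated data of 13647 probe sets at their real mean levels, with independent normal errors. Of these, 100 were changed 2-fold and 100 were changed 4-fold in line 4. That is a smaller share than the 15.5% that passed in the real data, and recovery at that share was not simulated. With each probe set's own residual spread, the fit found 55% of the 2-fold changes and 87% of the 4-fold ones with 3 false calls. With spreads moderated by eBayes, it found 91% and 100% with 9 false calls, so the recovery depends on the spread assumed.

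The members and gene lists were chosen with earlier results of these data known. Named genes are members of 1 gene by ratio, members that passed in line 4, and those beside the threshold. Probe sets named after their values were seen are 253502_at, 265768_at, the brightest unnamed ones, and the genes left out by the limit on A3-2. Names come from the platform annotation, with symbols from the TAIR10.1 gene table. The latter holds no descriptions, so families were taken by words in its synonyms. The matching of words (at word starts only) and of the epidermis marker FDH (to KCS10) was corrected after values had been seen. Lists with no gene named on the array (brassinosteroid, sugar starvation, nitrate, receptor kinases, SAUR-type families and the markers of flower, seed, leaf, xylem and epidermis) gave no value. Lists of gibberellin, cellulose, arabinogalactan, lipid transfer, cell division, tubulin, ribosome, chaperone, clock, cold, cytochrome P450, transporter, transcription factor and flavonoid genes held no member and no named gene at 2.5-fold. No sequence was used here. Alternatives were other floors, folds and limits for the rule, and other filters, scalings, variance priors, a replicate block and left-out replicates for the fit.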

Additional observations from a re-analysis of the deposited data

Results flagged for a closer look

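At 6 of the 13 named members both line 4 arrays lay on one side of both controls and the line 1 array on the other. Unnamed members such as 256299_at and 245325_at had the same pattern. Its share over all probe sets was not counted, so the 6 are not known to be unusual. The difference between the lines was not tested, since line 1 has 1 array, and both lines share the control arrays. The log2 differences of line 4 from the control, fitted with all probe sets, were 0.29 for MGL, with 23.2 units in line 1 against 27.1 and 25.3 in the control, and 1.11 for AT1G64500, with 5.2 against 12.9 and 7.6. They were -0.33 for AT4G25260 (109.4 in line 1 against 79.5 and 81.7), -0.20 for AT5G02540 (80.8 against 50.8 and 55.2), -2.23 for AT4G39675 (151.6 against 109.3 and 96.2) and -0.39 for AT5G24580 (22.6 against 21.3 and 22.2). In that fit AT4G39675 passed (limma adjusted p = 0.00502). MGL (0.537), AT1G64500 (0.224), AT4G25260 (0.138), AT5G02540 (0.449) and AT5G24580 (0.493) did not pass. At AT5G24580 the line 1 value exceeded the higher control by less than the controls differed from each other.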

How the results depend on the processing

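The number of members was 107 with a fold of 2, 32 with a fold of 3 and 30 when A3-2 had to stay below the higher control. It was 52 with floors of 5 or 20, the same probe sets in each, 42 with a minimum level of 100, 64 with no limit on A3-2, 47 after quantile normalization and 51 to 56 when a control or line 4 replicate was left out. Of the 52 members, 44 were among the 51 found without control replicate 1 and 49 among the 52 without control replicate 2, and all 52 were found with either line 4 replicate left out. The count of members called in line 4 was 8 with no filter, 9 without a variance trend and 6 to 11 with a replicate left out. Over all probe sets these counts were 1256, 1116 and 1028 to 2094, beside 2111. The median line 4 difference over members, -0.007, was -0.098 with no filter, over all 52, and -0.144 to -0.0209 with a replicate left out. With the replicate block 14 members and 2608 probe sets passed. Same-numbered control and line 4 arrays deviated with a correlation of -0.075, so the numbers were not taken to pair the samples. Uncalled differences changed sign for AT5G23750 (0.0299 after quantile normalization, -0.0909 to 0.0899 with a replicate left out) and AT5G47610 (-0.0055 to 0.149 with a replicate left out). No call changed sign. No p-value bears on the height of A3-1, which has no replicate, and near the floor the ratios depend on single dim values.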
